A study of Homo sapiens with 6 samples.

Results

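The 8 genes CST1, CST2, CST3, CST4, CST6, CST7, CSTA and CSTB encode cystatins. They were chosen by symbol with their treated against control log2 fold changes in these same arrays already known, out of 18417 genes with a probe set of their own. All 8 were measured, each by 1 probe set, and 6 of them lie above the 30% dimmest genes, with CST6 and CSTA below that limit. Cystatins are small proteins that bind tightly in the active site of papain-like cysteine proteases, the cathepsins of lysosomes and secretions, and block them. The stefins CSTA and CSTB (type 1) stay mainly inside the cell, whereas the type 2 cystatins CST1, CST2, CST3, CST4, CST6 and CST7 are made with a signal peptide. CST1 (cystatin SN), CST2 (cystatin SA) and CST4 (cystatin S) are closely related salivary-type cystatins, CST3 (cystatin C) is secreted by nearly all cell types, CST6 (cystatin E/M) also blocks legumain and is known from skin and mammary epithelium, and CST7 (cystatin F) is known from leukocytes.

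The cells were MDA-MB-231, a long-established human line of triple negative breast cancer, grown in DMEM with serum. There were 3 control samples, which the sources describe only as control or untreated, and 3 samples that received 500 nM EC-70124 for 24 h. EC-70124 is a multi-kinase inhibitor of the indolocarbazole class. The study names the samples of each group as independent, and all 6 come from 1 cell line at a single dose and time. Values are the authors' model-based expression index (MBEI), an intensity on a linear scale that is read within a probe set and not between genes.

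The arrays were close to each other, with medians over the 33252 probe sets of 437 to 444 in controls and 451 to 460.1 in treated samples. EC-70124 replicate 3 had the largest root mean square deviation from its group mean (0.13 on the log2 scale, against 0.08 to 0.10 in the other arrays). The 6 positive markers VIM, CD44, AXL, CAV1, MSN and LGALS1 had intensities of 6425 or more in every array. At an adjusted p under 0.05 (limma), 3 of them (CD44, AXL and MSN) fell with treatment, where 14.8% of all genes did. Of 7 markers known as low or lacking in such cells, ESR1, PGR, CDH1 and EPCAM had control means of 156 to 381, and GATA3, FOXA1 and ERBB2 had 523, 893 and 1486. GATA3 and CDH1 rose, by 0.46 and 0.19 on the log2 scale, where 19.7% of all genes rose. CDH1 was close to the threshold (limma adjusted p = 0.049). The table holds no measure of background that would say which of the 7 were absent. In bulk RNA, fewer cells that express a gene and less RNA per cell cannot be told apart.

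CST2 and CST4, both of the salivary type, were lower in every treated sample than in every control. CST2 had the widest change of the 8, a 4.25-fold lower level on the log2 mean, and CST4 fell by less, with a log2 fold change of -0.44. CST1 was at -0.41 with overlapping groups, and CST3, CST6, CST7, CSTA and CSTB had log2 fold changes between -0.09 and -0.02. All 8 log2 fold changes were below 0, as were those of 9401 of all 18417 genes. The 8 had a median of -0.08 and a range from -2.09 to -0.02, against a median of -0.0045 over all genes. For CST3, CST6, CST7, CSTA and CSTB the intervals given below included 0. These intervals are not adjusted for the number of genes and describe members listed with this contrast known. A fall of the whole family was therefore not tested. The value of CSTA turned to 0.0032 when control replicate 1 was left out. At an adjusted p under 0.05 from limma over all genes, 2 of the 8 were down-regulated (CST2 and CST4) and none was up-regulated, where 14.8% of all genes tested were down-regulated (2722) and 19.7% were up-regulated (3631). After quantile normalization these were 3527 and 3112 genes, and CST1 joined CST2 and CST4. Likewise, 2 of the 8 had all treated arrays below all control arrays, as did 22.0% of all genes. Since the members were listed with this contrast known, their values are a description and no p is given for them.

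**Figure D1:**
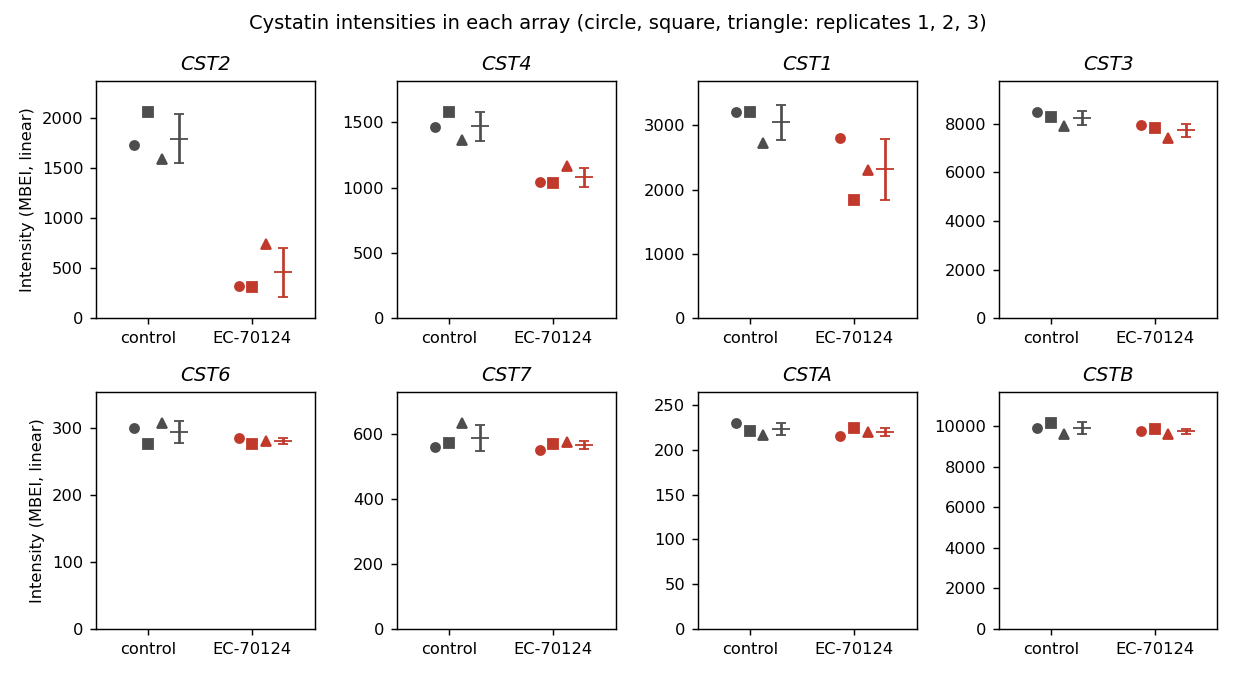
Intensity (MBEI, linear scale, y axes starting at 0) of each cystatin in the 3 control and 3 EC-70124 arrays, with circles, squares and triangles for replicates 1, 2 and 3 and bars for the mean and SD. CST2 is at 1594 to 2064 in controls and at 315 to 740.1 in treated arrays, while the 2 groups of CST3, CST6, CST7, CSTA and CSTB overlap.

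For CST2, the intensity was 1735, 2064 and 1594 in control replicates 1, 2 and 3 and 319, 315 and 740.1 in treated replicates 1, 2 and 3. The groups did not overlap, and treated replicate 3 was the highest of its group by a wide margin. The means were 1798 ± 241 (SD, n = 3) and 458 ± 244 (SD, n = 3), for a log2 fold change of -2.09 (standard error, SE, 0.30, 95% interval -2.78 to -1.39). Its place was 6 among the 18417 genes ordered from the largest fall. Without EC-70124 replicate 3 the log2 fold change was -2.49, and without replicate 1 or 2 of the treated arrays it was less negative, so that over all settings tried it ran from -2.49 to -1.88.

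CST4 had intensities of 1465, 1580 and 1363 in the controls and 1044, 1035 and 1165 in the treated arrays. Here, too, the groups did not overlap, and treated replicate 3 was again the highest of its group, though by less than for CST2. The means were 1469 ± 109 (SD, n = 3) and 1081 ± 72.8 (SD, n = 3), for a log2 fold change of -0.44 (SE 0.08, 95% interval -0.62 to -0.27). Without EC-70124 replicate 3 the log2 fold change was -0.50. CST4 stayed below the fold of 1.5 that was tried as a second threshold, which CST2 passed and which 3.24% of all genes passed as lower.

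CST1 had intensities of 3206, 3206 and 2730 in the controls and 2796, 1844 and 2304 in the treated arrays. The groups overlapped, because treated replicate 1 was above control replicate 3, and the spread among treated arrays was wider than among controls (476 against 275, SD). The log2 fold change was -0.41 (SE 0.14, 95% interval -0.74 to -0.08). Without EC-70124 replicate 2, the lowest array, the log2 fold change was -0.26, and without EC-70124 replicate 1 it was -0.56. CST1 was below the threshold of adjusted p in 7 of 14 alternative settings and not in the values given here.

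CST1, CST2 and CST4 may share probe sequences on the array, so that signal of one gene can enter the value of another. The ratio of 2 probe sets within an array shows whether they changed unequally. The log2 ratio of CST2 over CST1 changed by -1.67, from -0.77 ± 0.13 (SD, n = 3) to -2.44 ± 0.75 (SD, n = 3), and that of CST2 over CST4 changed by -1.64, from 0.29 ± 0.09 (SD, n = 3) to -1.36 ± 0.61 (SD, n = 3). In both ratios each treated array was below each control array. The log2 ratio of CST1 over CST4, by contrast, went from 1.05 ± 0.07 (SD, n = 3) to 1.08 ± 0.31 (SD, n = 3), a change of 0.03 that was smaller than the spread between arrays and ran from -0.14 to 0.15 over the alternatives. The treated arrays did not order the 3 genes alike: CST2 and CST4 were highest in treated replicate 3, and CST1 was highest in treated replicate 1. How much shared probe sequence contributes was not tested.

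**Figure D2:**
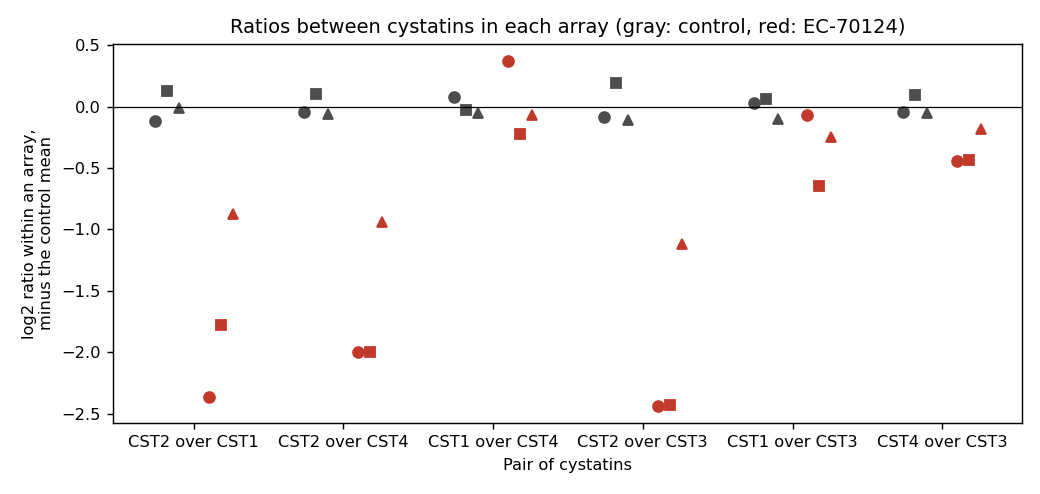
Log2 ratio of 2 cystatin probe sets within each array, minus the mean of the 3 control arrays (y axis), for 6 pairs (x axis), with control arrays in gray, EC-70124 arrays in red and circles, squares and triangles for replicates 1, 2 and 3. The ratios of CST2 to CST1, CST4 and CST3 are lower in all 3 treated arrays, and so is CST4 over CST3, with a change of -0.35. CST1 over CST3 changed by -0.32 with overlapping groups, while CST1 over CST4 scatters around 0.

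CST3, the most widely expressed of the secreted cystatins, had intensities of 8491, 8293 and 7913 in the controls and 7945, 7834 and 7416 in the treated arrays. The groups touched, with treated replicate 1 just above control replicate 3, and the log2 fold change was -0.09 (SE 0.06, 95% interval -0.22 to 0.04). The intracellular CSTB had 9925, 10185 and 9614 in the controls and 9773, 9848 and 9632 in the treated arrays, a log2 fold change of -0.02 (SE 0.05, 95% interval -0.14 to 0.10). The other stefin, CSTA, had 230.3, 222 and 217 in the controls and 215, 225 and 219 in the treated arrays, with a log2 fold change of -0.02 (SE 0.05, 95% interval -0.14 to 0.10). For CSTB the interval leaves room for a log2 change of up to about 0.14 in size, so a small shift was not detectable with 3 arrays a group. CSTA is among the dimmest genes and cannot be told from background, so its interval does not bound a change of its RNA.

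CST6, an inhibitor of legumain as well as of cathepsins, had intensities of 299.9, 277 and 308 in the controls and 285, 276 and 281 in the treated arrays. CST7 had 560.1, 572 and 635 in the controls and 551, 569 and 575 in the treated arrays. Treated and control arrays overlapped for both genes, and the log2 fold changes were -0.07 (95% interval -0.21 to 0.07) and -0.06 (95% interval -0.21 to 0.09). Because CST7 is known from leukocytes, a list of 11 measured leukocyte markers was read beside it. Of these, 1 fell and none rose, beside 14.8% and 19.7% of all genes. The member that fell was LAPTM5, a lysosomal membrane protein, with a log2 fold change of -0.78 (SE 0.09, limma adjusted p = 0.00033). The summed intensity of the list, to which bright probe sets add most, was 7851 to 8407 in controls and 6832 to 7395 in treated arrays. Without LAPTM5, left out after its change was seen, the sum of the other 10 markers was 5115 to 5642 in controls and 5420 to 5572 in treated arrays, so that the groups overlapped. PTPRC (CD45), which defines leukocytes, had mean intensities of 95.1 and 96.5 in the control and treated groups. Of the 11 markers, 5 lie above the limit for the dimmest genes, and PTPRC is not among these. The control and treated means were 2478 and 2510 for TYROBP and 2727 and 1593 for LAPTM5. They were 738 and 741 for NKG7, 563 and 672 for ITGAM, and 536 and 518 for CD14. The samples were cultures of 1 cell line, MDA-MB-231, and the study describes no other cells in them. What the CST7 signal reflects was not tested.

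Of the 8 genes, 5 are on chromosome 20. RefSeq places CST3, CST4, CST1 and CST2 in this order with no other protein-coding gene between them, and CST7 lies further along, while CST6, CSTA and CSTB are on chromosomes 11, 3 and 21. CST5 (cystatin D), another salivary cystatin that is not one of the 8, comes next after CST2. Its mean intensity was 405 ± 32.0 (SD, n = 3) in controls and 370 ± 27.8 (SD, n = 3) in treated arrays, a log2 fold change of -0.13 (SE 0.08, limma adjusted p = 0.27). CST3 and CST5, which enclose CST4, CST1 and CST2, both had log2 fold changes closer to 0 than these 3 genes. Among the genes of the stretch that are not cystatins, APMAP, which follows CST7, fell with a log2 fold change of -0.48 (SE 0.08, limma adjusted p = 0.0015), more negative than those of CST4 and CST1. GZF1, on the other side of the cystatins, rose with a log2 fold change of 0.30 (limma adjusted p = 0.005). These 2 genes were named after their values were seen. Toward the other side of CST3, CST9, CST9L, CST8, CST11 and CSTL1 had log2 fold changes between -0.19 and -0.03, and none passed the test.

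**Figure D3:**
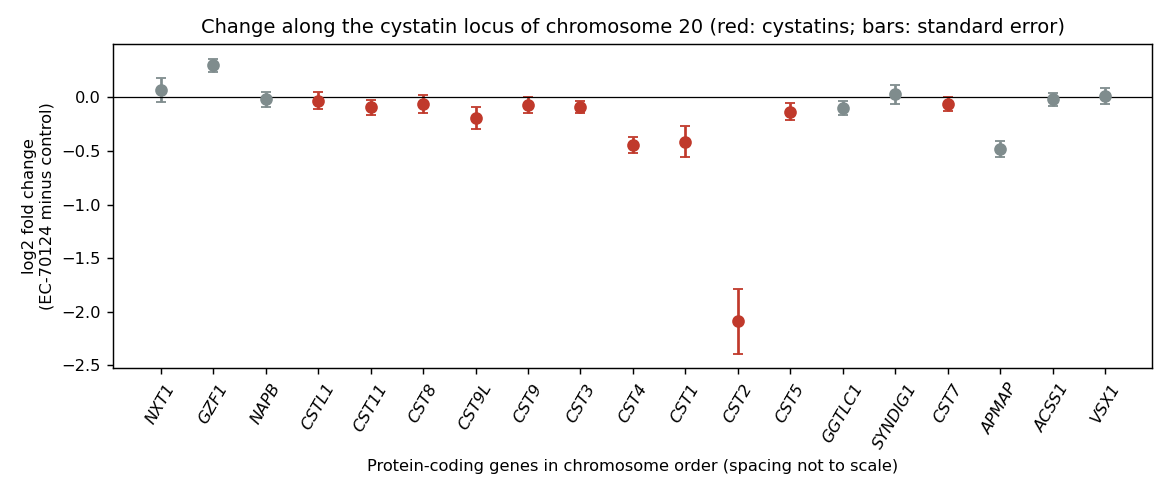
Log2 fold change (EC-70124 minus control, 3 arrays per group, bars for the standard error, y axis) of protein-coding genes in their order along the cystatin locus of chromosome 20 (x axis, spacing not to scale), with cystatins in red and other genes in gray. CST2 is at -2.09, its neighbors CST1 and CST4 are at -0.41 and -0.44, and CST3 and CST5 on either side are at -0.09 and -0.13, while APMAP, outside them, is at -0.48.

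The RefSeq promoter windows (GRCh38.p14) held 1 of the 8 cystatins, CST3. It is shown with that of CST5, since these are the 2 genes that enclose CST4, CST1 and CST2. Each window is the 250 bases before the start of the gene, on the minus strand, at chr20:23637956-23638205 for CST3 and chr20:23879749-23879998 for CST5, written 5′ to 3′ with the letters GGATAAA in capitals.
CST3: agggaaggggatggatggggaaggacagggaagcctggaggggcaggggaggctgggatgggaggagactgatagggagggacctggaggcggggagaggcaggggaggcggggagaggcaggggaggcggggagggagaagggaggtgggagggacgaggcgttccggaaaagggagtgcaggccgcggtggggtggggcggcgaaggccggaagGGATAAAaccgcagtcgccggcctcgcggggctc
CST5: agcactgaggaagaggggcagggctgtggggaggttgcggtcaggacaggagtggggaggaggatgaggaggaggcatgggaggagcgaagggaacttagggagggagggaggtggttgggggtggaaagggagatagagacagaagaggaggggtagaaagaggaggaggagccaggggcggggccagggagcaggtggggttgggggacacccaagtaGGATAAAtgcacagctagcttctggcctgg
The CST3 window has a GC content of 70.8% with 16 CpG, and the CST5 window has 62.4% with 3 CpG, where the median of 34796 RefSeq windows of the same length is 58.0% with 11 CpG. On both strands, neither window held TATAAA (in 10.8% of all windows), TGACTCA (4.21%), CCAAT (32%) or TTCNNNGAA (6.57%). Both hold 1 copy of GGATAAA, which begins 34 bases before the start of CST3 and 30 bases before that of CST5, and which 2.24% of all windows hold. This last motif was chosen after the windows had been read, and it shares its last 5 letters with TATAAA.

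Genes for the cathepsins that cystatins block were read next, together with legumain, which CST6 also blocks. Of all genes, 34.5% passed the test in either direction. Of 12 genes for cysteine cathepsins and legumain, 4 were down-regulated, 1 was up-regulated and 7 did not pass the test, beside the 14.8% and 19.7% of all genes, with a median log2 fold change of -0.0015. CTSB (cathepsin B) fell from 5771 ± 221 (SD, n = 3) to 3841 ± 327 (SD, n = 3), for a log2 fold change of -0.59 (SE 0.07, limma adjusted p = 0.0005). CTSC, which activates granule proteases, fell with a log2 fold change of -0.45 (limma adjusted p = 0.00031), and legumain (LGMN), an asparaginyl protease of lysosomes, with -0.39 (limma adjusted p = 0.00089). CTSL (cathepsin L) was the other gene that fell, with a log2 fold change of -0.32. CTSO rose from 601 ± 42.1 (SD, n = 3) to 953 ± 23.0 (SD, n = 3), for a log2 fold change of 0.67 (SE 0.07, limma adjusted p = 0.00014). The lysosomal proteases of the aspartic and serine classes, which cystatins do not block, had 1 of 9 genes (against 14.8% of all genes) down-regulated and none up-regulated, with a median log2 fold change of -0.08. That gene was CTSG, with a log2 fold change of -0.31 and mean intensities of 164 and 131, and its call was lost when any array other than control replicate 2 was left out (limma adjusted p of 0.066 to 0.103).

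For the lists that follow, the shares of all genes are again 14.8% lower and 19.7% higher. Among the other inhibitors, the 13 further genes of the cystatin superfamily had 1 member up-regulated and none down-regulated, with a median log2 fold change of -0.06. The member that rose was LXN (latexin), an inhibitor of carboxypeptidases with a cystatin-like fold, from 938 ± 55.7 (SD, n = 3) to 1293 ± 154 (SD, n = 3), for a log2 fold change of 0.46 (SE 0.09, limma adjusted p = 0.0061). Of 11 clade B serpins, the mostly intracellular serpins of which SERPINB3 and SERPINB13 can block cathepsins, 1 rose and none fell. This was SERPINB8, which went from 1732 ± 134 (SD, n = 3) to 4558 ± 787 (SD, n = 3), for a log2 fold change of 1.39 (SE 0.12, limma adjusted p = 7.2e-05). SERPINB3 and SERPINB13, both among the dimmest genes, did not pass, at 0.19 and 0.10. Calpains are cytosolic cysteine proteases with an inhibitor of their own, calpastatin (CAST). Of 13 such genes, 2 fell, CAPN2 with a log2 fold change of -0.23 (limma adjusted p = 0.0081) and CAPN1 with -0.22 (limma adjusted p = 0.014, and 0.056 without control replicate 2). CAST did not pass, at -0.06.

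Genes of the tissues in which these cystatins are best known were read against the same 14.8% lower and 19.7% higher of all genes. Of 13 salivary and lacrimal secretory genes, where CST1, CST2 and CST4 are abundant, 1 fell and none rose. It was the mucin gene MUC7, at mean intensities of 151 and 127, with a log2 fold change of -0.25 (limma adjusted p = 0.015) that missed the threshold without control replicate 1 (0.059) or EC-70124 replicate 2 (0.053). Of 18 cornified envelope genes, the squamous program in which CSTA and CST6 take part, 1 rose and none fell, the filaggrin gene FLG with a log2 fold change of 0.41 (SE 0.07, limma adjusted p = 0.003).

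**Figure D4:**
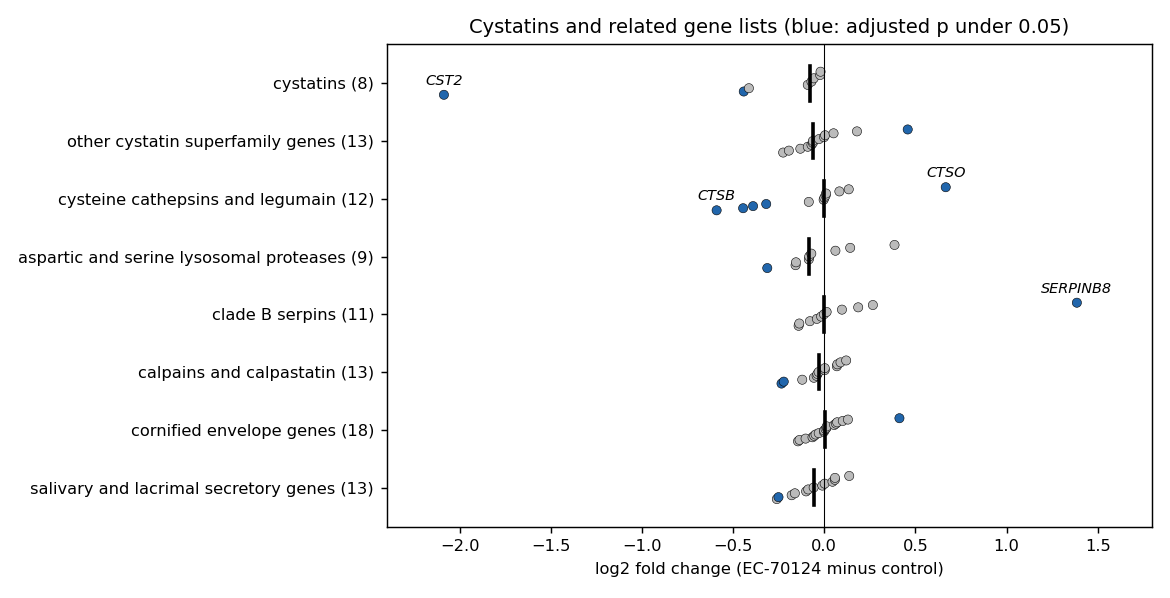
Log2 fold change (EC-70124 minus control, 3 arrays per group, x axis) for the genes of 8 lists (y axis, list sizes in parentheses), in blue for an adjusted p under 0.05 (limma) and in gray for the rest, with a black bar at the median of the list. CST2 is farthest to the left at -2.09 and SERPINB8 farthest to the right at 1.39, and the medians of all 8 lists lie between -0.08 and 0.0032.

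The genes whose profile over the 6 arrays lay nearest to each of the 3 cystatins with the largest changes were found by the root mean square difference of log2 values, after each gene was centred on its control mean. Nearest to CST2 were the bombesin receptor gene GRPR (0.33), INSIG1 (0.45), a regulator of cholesterol synthesis, and the carbonic anhydrase gene CA12 (0.50). Of the treated arrays, replicate 3 was the highest for GRPR and INSIG1, as for CST2, and the lowest for CA12. Nearest to CST4 were NUP93 (0.03), AKAP1 (0.03) and NCAPD3 (0.03), and nearest to CST1 were probe sets named for the microRNA genes MIR15A (0.10) and MIR29A (0.10), at control means of 178 and 59.1, and GREB1L (0.13). Between members the difference was 0.18 for CST1 and CST4, 1.26 for CST1 and CST2, 1.22 for CST2 and CST4, and 0.03 for CSTA and CSTB. With genes centred on their control means, a small difference mainly restates a like fold change. NUP93, AKAP1 and NCAPD3 each had a log2 fold change of -0.43, and CSTA and CSTB each had -0.02. Shared regulation was not tested.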

How the data were processed

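Affymetrix Human Gene ST arrays of 3 control and 3 EC-70124 samples were analysed. The authors normalized array pairs in dChip on probes of invariant rank and deposited 1 model-based intensity per probe set, on a linear scale. For dChip's version and background correction, the sources used here give nothing. The number of arrays limits the precision. Values under 1 were raised to 1 before log2, without further scaling. Gene names came from the platform annotation (19460 probe sets with 1 symbol, 1754 with several, 12038 with none). Of a gene's probe sets with 1 symbol, the one with the highest mean was used. All 18417 genes entered limma's lmFit and eBayes (limma 3.58.1, R 4.3.3), 2-sided, with Benjamini-Hochberg adjustment at 0.05. Intervals use the moderated standard error and are not adjusted for the number of genes. An exact permutation test of 3 against 3 arrays cannot give a p below 0.1. The members and lists were chosen with earlier results of these data known. Named genes are all 8 cystatins, in each list the largest changes past the threshold (at most 4), and the 3 nearest profiles of the 3 cystatins that changed most. Marker genes and members of lists named for their role are outside this rule. In simulated data for this comparison (18417 genes, 200 changed), 79% of genes changed by a fold of 1.5 and 96% of those changed by a fold of 2 were recovered. The real data had far more genes past the threshold (6353). The Benjamini-Hochberg cutoff therefore differs, and these shares do not measure recovery in the real data. Alternatives were normalization by quantiles or by cyclic loess, a filter that removes the 30% dimmest genes, an added offset of 50, the median of a gene's probe sets, limma's trend and robust options, a minimum fold of 1.5, a block for the replicate number, and each array left out in turn.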

Additional observations from a re-analysis of the deposited data

How the results depend on the processing

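CST2 passed the threshold in all 14 alternatives, CST4 in 13 (not with a fold threshold of 1.5) and CST1 in 7, which made 3 cystatins lower in place of 2 after quantile normalization, cyclic loess, an offset of 50, an intensity trend with robust settings, without the 30% dimmest genes, with the replicate block and without EC-70124 replicate 1. CST3, CST7 and CSTB passed in none. CST6 and CSTA passed in none of the settings that tested them, since the filter of the 30% dimmest genes removed both. Because the members were listed with this contrast known, these calls describe dependence on the processing and are no independent support. The log2 fold changes of the 8 cystatins and the changes of the 6 ratios moved by less than the spread between replicates after quantile normalization, cyclic loess and an offset of 50. The median over probe sets and the replicate block cannot move these values. Leaving out a single array cannot move them by as much as that spread, so those settings say nothing on this point. With a fold threshold of 1.5, the table had 1184 genes higher and 596 lower, 1 cystatin and 1 cathepsin gene were lower, and 0 remained past it among aspartic and serine proteases, calpains, cornified envelope genes, salivary and lacrimal genes and other cystatin superfamily genes. After quantile normalization, 3112 genes were higher and 3527 lower, against 3631 and 2722, and 2 salivary and lacrimal genes were lower. The aspartic and serine proteases had 2 genes lower after quantile normalization, cyclic loess and the intensity trend. The causes of these differences were not tested. When single arrays were left out, the count of lower genes ran from 0 to 1 for aspartic and serine proteases (0 without each array but control replicate 2), from 1 to 2 for calpains (1 without control replicate 2) and from 0 to 2 for salivary and lacrimal genes (0 without control replicate 1, 2 without control replicate 3 or EC-70124 replicate 3). The count of higher genes ran from 1 to 2 for clade B serpins (2 without control replicate 1), from 0 to 1 for calpains and from 1 to 2 for cornified envelope genes (1 and 2 without EC-70124 replicate 3). The labels do not say whether samples with the same replicate number were paired. Deviations from the group mean correlated at 0.13, -0.02 and 0.14 for numbers 1, 2 and 3, which does not settle it. With the number as a block, 3521 genes were higher and 2662 lower. With no measure of background, dim probe sets such as CST6 and CSTA cannot be told from background.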
